A study of Mus musculus with 10 samples.

Results

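The difference between Sham-operated and Naive mice was described in hippocampal RNA, in 6 of the 10 mice of the series. The members were fixed by the condition label, 3 Sham mice (numbered 5 to 7) against 3 Naive mice (numbered 8 to 10), and the 4 mice with subarachnoid hemorrhage (SAH) took no part in the comparison. Sham mice were anaesthetised with isoflurane, the external carotid artery was exposed in the neck, tied and cut, and a filament was passed up the vessel until it met resistance, then pulled back with the wall left intact. Naive mice had no surgery. Mice of every group were male, of the strain printed as C56BL/6J in the study, 10 to 14 weeks old, received no drug treatment, and gave both hippocampi as 1 library per mouse at 4 days. Anaesthesia, the neck wound, the tied artery and the filament came together in Sham mice, so their effects cannot be told apart.

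Sham surgery is the usual control in filament models of brain haemorrhage, because it shares everything with the injury except the puncture. The hippocampus holds densely packed excitatory neurons whose immediate early genes, such as Fos, Npas4 and Arc, are transcribed within minutes of synaptic activity and then return to a resting level. The tissue borders the pia, a fibroblast layer of the meninges, and the choroid plexus, the epithelium that secretes cerebrospinal fluid, so a dissected piece can carry RNA of either.

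The counts on genes summed to between 24080219 and 27254655 per Sham mouse and between 19743388 and 26551775 per Naive mouse, with Naive mouse 9 the lowest. Of 24391 gene names, 19103 had a count in at least 1 of the 6 mice and 14855 passed the filter on low counts. All levels are CPM, which set each count against the TMM-adjusted size of its library, and all fold changes are log2 of Sham over Naive with a 95% interval from edgeR's quasi-likelihood fit. Xist, an RNA of female cells, had between 0 and 2 counts in every mouse. Markers of hippocampal pyramidal neurons (Mpped1, mean 269 CPM over the 6 mice) and of dentate granule cells (Stxbp6, mean 124 CPM) were abundant.

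At a Benjamini-Hochberg adjusted p under 0.10, 3 of the 14855 genes differed between Sham and Naive mice (0.0202%, edgeR's quasi-likelihood test). Slc13a4 and Fmod rose in Sham mice (2 genes, 0.0135% of those tested) and Npas4 fell (1 gene, 0.00673%). At an unadjusted p under 0.05, 282 genes were higher (1.9%) and 336 were lower (2.26%), which together is 4.16% of the genes tested. The 3 Sham mice all lay above the 3 Naive mice for 706 genes (4.75%) and all below for 621 (4.18%), together 8.93%. DESeq2 called 12 genes higher and 7 lower, these 3 among them.

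The intervals set a bound on what surgery alone changed. For 14160 genes (95.3%) the whole 95% interval lay within 1 log2 unit, that is within a 2-fold difference in either direction, and for 12025 (80.9%) it lay within 0.5, a 1.41-fold difference. The median half-width was 0.165, or 1.12-fold. The median fold change of all genes was −0.002, and from 5% to 95% of genes the values ran from −0.20 to 0.23. In 4 genes the whole interval lay beyond 1 log2 unit, Slc13a4, Wfikkn2, Ttr and Kcnj13, of which Slc13a4 alone was called by edgeR. DESeq2 also called Wfikkn2, and with no filter edgeR called all 4.

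The bound was tighter for abundant genes. Between 10 and 100 CPM, 7584 of 7585 genes were within 1 log2 unit, with Npas4 the exception, and 7522 were within 0.5. Above 100 CPM, 2413 of 2416 were within 1 log2 unit, with Ptgds, Ttr and Enpp2 the exceptions. Under 1 CPM the median half-width was 0.75, only 537 of 1119 genes were within 1 log2 unit and 0 were within 0.5, so differences in such genes were bounded loosely at this depth and number of mice. The intervals were not adjusted over genes.

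**Figure D1:**
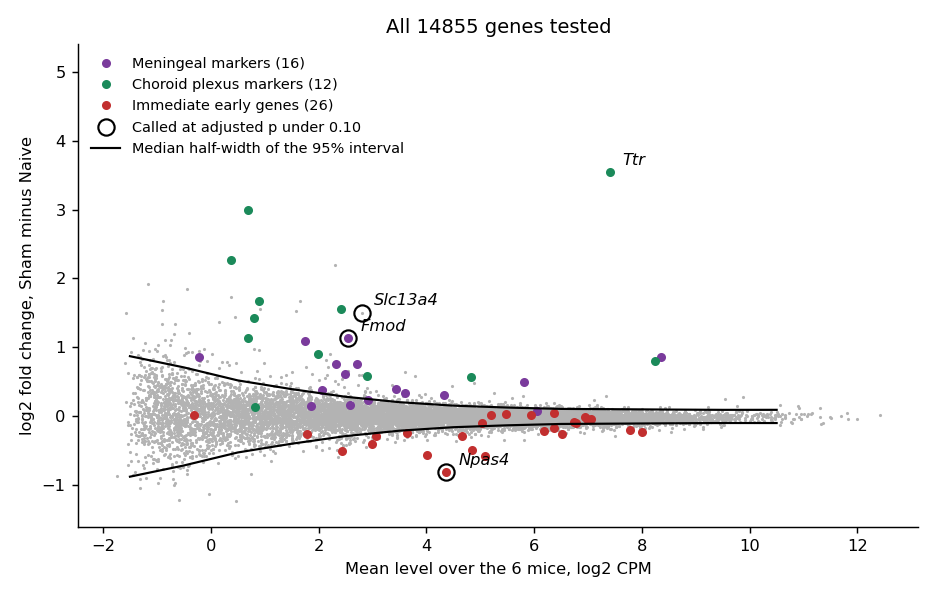
Each point is 1 of the 14855 genes, with its mean level over the 6 mice (log2 CPM) against its log2 fold change, Sham minus Naive. Open rings mark the 3 genes called, colours mark 3 gene lists, and the black lines show the median half-width of the 95% interval by level, which narrows from the left to the right; most coloured points above the lines belong to meningeal or choroid plexus markers, and those below to immediate early genes.

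Slc13a4 (chromosome 6, 35217953 to 35258126, mm9), a sodium-coupled sulfate transporter, had 9.44, 8.44 and 13.1 CPM in Sham mice 5, 6 and 7, and 3.23, 3.08 and 4.54 CPM in Naive mice 8, 9 and 10. Every Sham mouse was above every Naive mouse, and Sham mouse 7 was the highest. The mean was 10.3 ± 2.45 CPM in Sham (SD, n = 3) and 3.62 ± 0.801 CPM in Naive (SD, n = 3), a log2 fold change of 1.51 (95% interval 1.10 to 1.91, adjusted p = 0.0215, edgeR).

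Fmod (chromosome 1, 135934092 to 135944854), which encodes fibromodulin, a proteoglycan of collagen fibres, had 8.86, 8.63 and 6.71 CPM in the Sham mice and 4.09, 2.77 and 3.99 CPM in the Naive mice. The groups did not overlap, with Naive mouse 9 the lowest of all. The log2 fold change was 1.14 (95% interval 0.79 to 1.49, adjusted p = 0.0533, edgeR).

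Npas4 (chromosome 19, 4984355 to 4989971), a transcription factor induced by neuronal activity, had 14.1, 14.1 and 16.8 CPM in the Sham mice and 23.3, 27.0 and 28.2 CPM in the Naive mice. All Sham mice were below all Naive mice, and the ranges were well apart. The mean was 14.97 ± 1.55 CPM against 26.2 ± 2.58 CPM (SD, n = 3 each), and Npas4 fell by 0.80 on the log2 scale (95% interval −1.01 to −0.60, adjusted p = 0.0196, edgeR).

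These 3 calls depended on single mice. Without Naive mouse 9, the shallowest library, 0 genes were called, the smallest adjusted p was 0.199 and 382 genes had an unadjusted p under 0.05 (edgeR). Without Naive mouse 8 the call on Npas4 alone was made. The sizes moved less, between 1.30 and 1.70 for Slc13a4, between 1.00 and 1.25 for Fmod and between −0.89 and −0.74 for Npas4 as each mouse was left out.

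Among the 10 genes of lowest p with all Sham mice above all Naive mice, 8 were not called by edgeR. DESeq2 called Spp1, Mrc1, Aebp1, Bmp7 and Wfikkn2 among others. Spp1, the secreted phosphoprotein osteopontin, had 6.63, 5.91 and 5.50 CPM in Sham mice and 2.82, 3.08 and 3.77 CPM in Naive mice (0.90, adjusted p = 0.110). Mrc1, the mannose receptor of tissue macrophages, had 5.23, 5.58 and 6.07 CPM against 3.38, 3.29 and 2.93 CPM (0.81, adjusted p = 0.110). The groups were apart in both genes but at levels of a few CPM.

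Aebp1, a collagen-binding protein of the extracellular matrix, had 13.8, 14.8 and 15.8 CPM in Sham mice and 10.8, 9.24 and 8.27 CPM in Naive mice (0.64, adjusted p = 0.110). Bmp7, a ligand of the TGF-beta family, had 6.68, 7.49 and 7.19 CPM against 4.47, 4.47 and 4.58 CPM (0.66, adjusted p = 0.115). Naive mice were close together in Bmp7. Wfikkn2, a secreted inhibitor of growth factors of the TGF-beta family, was the least abundant of the set, with 1.52, 1.65 and 2.81 CPM against 0.751, 0.360 and 0.636 CPM (1.73, 95% interval 1.02 to 2.44, adjusted p = 0.219). All adjusted p-values are edgeR's.

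**Figure D2:**
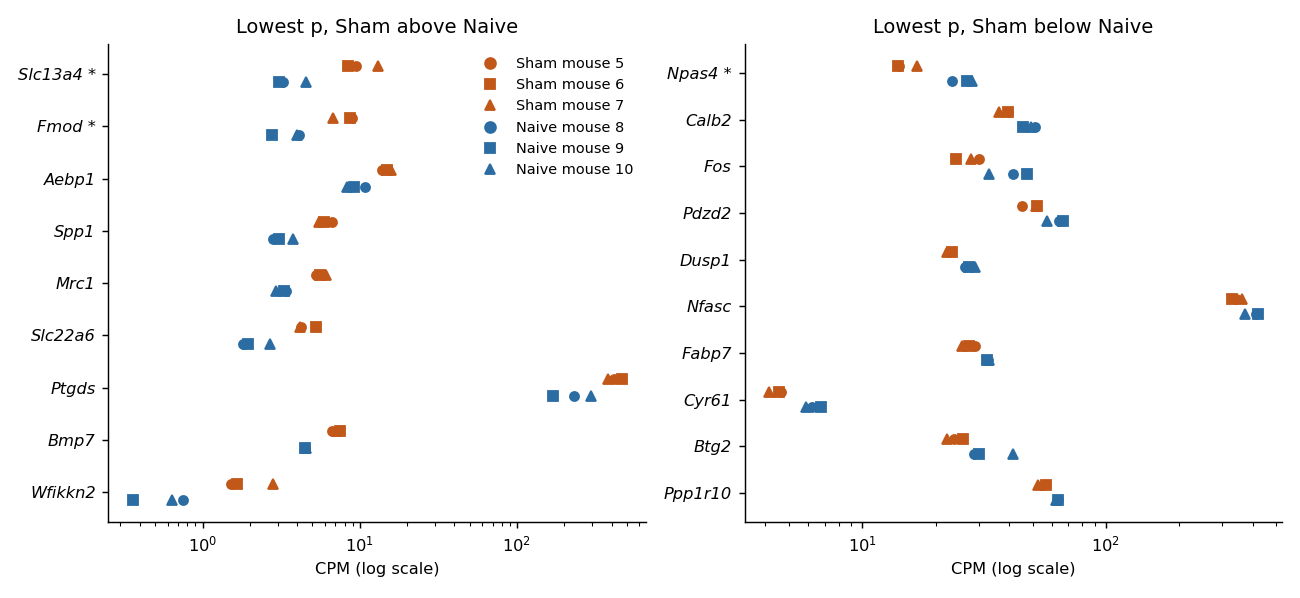
Levels of genes from the 10 of lowest p in each direction whose groups did not overlap (9 shown on the left, 10 on the right), in CPM on a log scale, with 1 symbol per mouse (orange Sham, blue Naive). Asterisks mark the 3 genes called. Log2 fold changes on the right run from −0.80 for Npas4 to −0.20 for Ppp1r10 and are smaller than most on the left.

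Meningeal and fibroblast markers held 16 genes, all tested, and every one had a positive log2 fold change. Fmod alone was called by edgeR (1 of 16, beside 0.0135% of all genes). DESeq2, which called 12 genes higher among all genes, also called Slc22a6, Slc6a13 and Aldh1a2. With no filter, edgeR also called these and Ptgds. At an unadjusted p under 0.05, 11 of 16 were higher, where 1.9% of all genes were, and in 11 of 16 the Sham mice lay above the Naive mice, where 4.75% of all genes did. The median log2 fold change was 0.45, beside −0.002 over all genes. This list, like the others, was written with earlier results of these data known. It holds genes of the lowest p, such as Fmod, Slc22a6 and Ptgds, so its counts are a description and no test.

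The list holds carriers of small solutes that line the brain surface. Slc22a6, an organic anion transporter, had 4.24, 5.25 and 4.18 CPM in Sham mice and 1.80, 1.95 and 2.67 CPM in Naive mice (log2 fold change 1.09, adjusted p = 0.110, edgeR). Slc6a13, a carrier of GABA and taurine, had 8.24, 9.03 and 7.47 CPM against 5.60, 3.29 and 5.60 CPM (0.75, adjusted p = 0.519, edgeR). Neither overlapped between groups, and in Slc6a13 Naive mouse 9 stood below the other Naive mice.

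Ptgds, which makes prostaglandin D and is secreted into cerebrospinal fluid, was the most abundant gene of the list, with 417, 465 and 377 CPM in Sham mice and 230, 169 and 294 CPM in Naive mice (0.86, 95% interval 0.55 to 1.17, adjusted p = 0.110, edgeR). Aldh1a2, the enzyme that makes retinoic acid in meningeal fibroblasts, had 6.55, 6.46 and 5.87 CPM against 3.76, 2.82 and 4.49 CPM (0.76, adjusted p = 0.315, edgeR). Igf2, a growth factor, had 50.2, 62.6 and 85.5 CPM against 49.2, 46.3 and 45.1 CPM (0.49, adjusted p = 0.988, edgeR). In Igf2 the gap between Sham mouse 5 and Naive mouse 8 was small, and without Sham mouse 7 the log2 fold change was 0.27.

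The collagen genes and Dcn, a proteoglycan gene, mark fibroblasts in general and had lower values than Slc22a6 and Slc6a13. Col1a2 had a log2 fold change of 0.40 (95% interval 0.18 to 0.61). Col1a1 had 0.16 (−0.09 to 0.42), Col3a1 0.15 (−0.23 to 0.53) and Dcn, at 66.3 CPM the most abundant of the 4, 0.08 (−0.25 to 0.40). Intervals of Col1a1, Col3a1 and Dcn included 0. Fmod, also a proteoglycan gene, had 1.14, and Ogn (0.61) and Lum (0.38) lay between it and Dcn. Fibroblast genes of the list thus did not share 1 size of change.

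A list score was taken for each mouse, the mean over the list of log2 CPM minus the mean of the Naive mice. The meningeal score was 0.50, 0.57 and 0.53 in Sham mice 5, 6 and 7, and 0.05, −0.16 and 0.10 in Naive mice 8, 9 and 10. The Sham mice were close together and above every Naive mouse. Leaving out each mouse gave a median log2 fold change between 0.30 and 0.57 for the list. In bulk tissue, more cells of a type and more RNA per cell cannot be told apart, and how much of the meninges each dissection carried is not given in the sources used here.

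Markers of macrophages at the brain's borders and further transporters of the meninges were listed after the values of Mrc1 and Slc13a4 had been seen, so their counts are no support. Of 12 border macrophage markers 8 were tested, 4 were higher at an unadjusted p under 0.05 (1.9% of all genes) and 6 had Sham mice above Naive mice (4.75% of all genes), with a median log2 fold change of 0.48. Lyve1 had 22, 30 and 18 counts in Sham mice and 11, 13 and 10 counts in Naive mice. Stab1, another gene of that list, had a log2 fold change of −0.01 (95% interval −0.17 to 0.16). Of 7 transporter genes tested, Slc6a20a had 163, 283 and 204 counts against 151, 109 and 128 counts (0.60), and Slc13a3 had 0.13 (−0.07 to 0.33).

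Choroid plexus markers had the highest median of the lists, 1.28 over 12 of 15 genes tested, and the 3 left out had few counts in most mice. At an unadjusted p under 0.05, 10 of 12 were higher (1.9% of all genes), but the groups did not overlap in only 3 (4.75% of all genes), and 0 were called at an adjusted p under 0.10 by edgeR or by DESeq2. With no filter, or without Sham mouse 6, Ttr and Kcnj13 were called.

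The signal was uneven between mice. Ttr, the transthyretin carrier that makes up much of the RNA of choroid plexus epithelium, had 173, 24.7 and 739 CPM in Sham mice 5, 6 and 7, and 36.3, 17.0 and 26.1 CPM in Naive mice. Sham mouse 7 was high, Sham mouse 5 was intermediate and Sham mouse 6 lay within the range of the Naive mice. Kcnj13, a potassium channel of that epithelium, had 2.43, 0.551 and 5.71 CPM against 0.488, 0.205 and 0.339 CPM (2.99, adjusted p = 0.694, edgeR), in the same order. The list score was 0.98, 0.04 and 2.35 in Sham mice and 0.29, −0.18 and −0.11 in Naive mice, and without Sham mouse 7 the median log2 fold change was 0.38.

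Sham mouse 6, at 0.04 for choroid plexus the lowest of the 3 Sham mice, had 0.57 for the meninges, the highest. Single genes differed in this. Slc13a4 was highest in Sham mouse 7 and lowest in Sham mouse 6, the order of Ttr, and Igf2 and Wfikkn2 were also highest in Sham mouse 7, whereas Fmod was lowest there. Slc13a4 (1.30), Fmod (1.25) and Npas4 (−0.89) stayed called without Sham mouse 7. Enpp2, which is abundant in choroid plexus and in oligodendrocytes, had a log2 fold change of 0.81 (95% interval 0.16 to 1.46) that was 0.17 without Sham mouse 7. Kl, the klotho gene, had 25.9, 26.7 and 49.8 CPM in Sham mice and 24.6, 22.4 and 22.05 CPM in Naive mice, a log2 fold change of 0.56 that was 0.19 without Sham mouse 7.

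**Figure D3:**
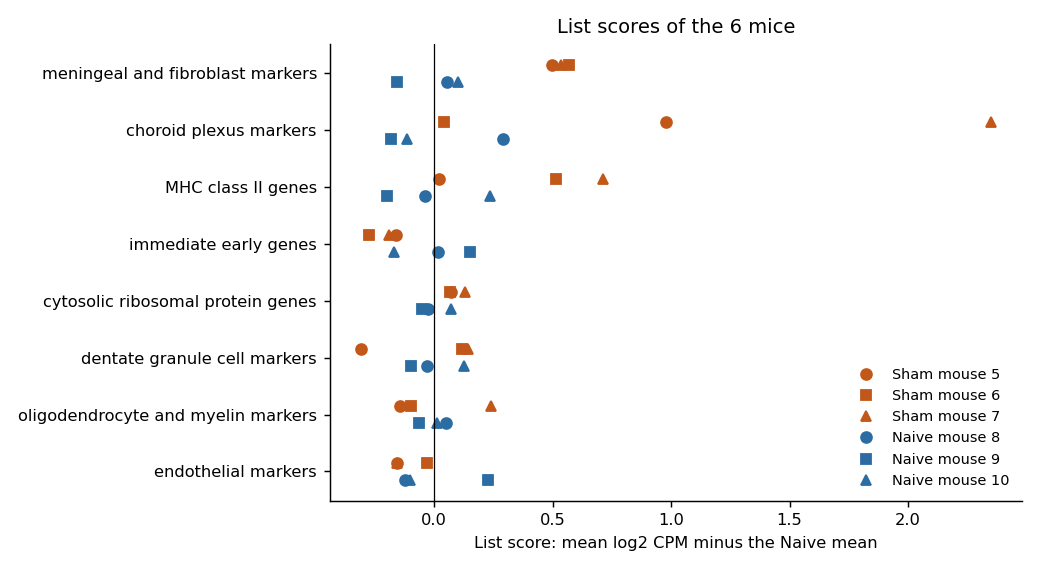
List scores of the 6 mice for 8 gene lists, as the mean log2 CPM over the tested genes of the list minus the mean of the Naive mice (orange Sham, blue Naive, 1 symbol per mouse). Meningeal markers separate the groups, with 0.50 to 0.57 in Sham mice against at most 0.10 in Naive mice, whereas choroid plexus markers spread over Sham mice from 0.04 to 2.35 and Sham mouse 5 stands low for dentate granule cell markers at −0.31.

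Immediate early genes formed the list with the lowest median. Of 26 genes, all tested, 21 had a negative log2 fold change and the median was −0.21. Npas4 alone was called by edgeR (1 of 26, beside 0.00673% of all genes). DESeq2, which called 7 genes lower among all genes, also called Fos, Btg2 and Fosb. Without Naive mouse 10, edgeR also called Fos, Fosb and Junb. At an unadjusted p under 0.05, 10 were lower (2.26% of all genes) and 0 higher, and in 7 the Sham mice lay below the Naive mice (4.18% of all genes).

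Promoters are shown for Npas4, for Fos, the next by p, and for Dusp1 and Btg2, which hold the full cyclic AMP response element. These genes were lower in Sham mice and were chosen with that known, so their promoters are given as background. The element binds CREB, a factor activated by calcium entry and cyclic AMP. Sequences run 5′ to 3′ from 250 bases before to 50 after the start, and are RefSeq's of GRCm38.p6, another build than the mm9 of the count tables. They lie at chr19:4989922-4990221 (minus strand), chr12:85473640-85473939 (plus), chr17:26508423-26508722 (minus) and chr1:134079106-134079405 (minus). Capitals mark the core TGACG or its reverse CGTCA, and the full palindrome TGACGTCA, which holds both cores.
Npas4: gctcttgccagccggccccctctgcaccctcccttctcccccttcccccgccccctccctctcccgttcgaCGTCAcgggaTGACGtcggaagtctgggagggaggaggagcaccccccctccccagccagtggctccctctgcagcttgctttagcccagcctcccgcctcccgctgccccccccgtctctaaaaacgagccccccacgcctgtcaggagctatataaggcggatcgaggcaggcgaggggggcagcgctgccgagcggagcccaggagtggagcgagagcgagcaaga
Fos: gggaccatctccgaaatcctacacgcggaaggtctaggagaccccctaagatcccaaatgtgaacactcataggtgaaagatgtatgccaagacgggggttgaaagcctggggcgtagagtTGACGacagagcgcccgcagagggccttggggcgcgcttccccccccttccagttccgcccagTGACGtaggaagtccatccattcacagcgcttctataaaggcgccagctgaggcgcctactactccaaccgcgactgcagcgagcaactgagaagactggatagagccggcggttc
Dusp1: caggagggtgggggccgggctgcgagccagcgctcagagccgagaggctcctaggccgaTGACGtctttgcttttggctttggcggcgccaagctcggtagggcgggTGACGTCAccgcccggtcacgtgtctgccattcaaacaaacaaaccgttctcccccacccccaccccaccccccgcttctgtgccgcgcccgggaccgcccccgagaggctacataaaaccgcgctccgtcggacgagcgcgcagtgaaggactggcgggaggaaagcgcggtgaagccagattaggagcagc
Btg2: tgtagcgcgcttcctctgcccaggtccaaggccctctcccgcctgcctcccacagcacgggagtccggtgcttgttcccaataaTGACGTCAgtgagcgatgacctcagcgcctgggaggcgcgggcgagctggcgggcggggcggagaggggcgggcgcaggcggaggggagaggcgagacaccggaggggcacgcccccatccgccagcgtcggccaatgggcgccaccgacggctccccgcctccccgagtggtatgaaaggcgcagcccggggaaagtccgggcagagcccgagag

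Of the 26 genes 21 matched a RefSeq promoter of that table. The core, searched on both strands, was in 14 of 21 (66.7%), beside 5681 of 27025 promoters of the same length (21.0%). Among these 14, Npas4, Fos, Fosb, Junb, Dusp1, Btg2 and Cyr61 were lower at an unadjusted p under 0.05. Egr4, Nr4a1, Nr4a2, Nr4a3, Klf4, Atf3 and Homer1 were not, with −0.01 for Homer1 and 0.02 for Atf3. That share belongs to the list as chosen and compares no mice. The full element was in Dusp1 and Btg2 alone, 2 of 21 (9.52%), beside 507 promoters (1.88%), and the serum response element, by its consensus, in 0 of 21 beside 425 (1.57%). The promoters of Slc13a4 and Fmod held none of these letters. A match describes the letters in this window and no binding was measured.

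Fos, a subunit of the AP-1 factor, had 30.1, 24.2 and 28.01 CPM in Sham mice and 41.6, 47.4 and 33.2 CPM in Naive mice (log2 fold change −0.57, 95% interval −0.81 to −0.32, adjusted p = 0.297, edgeR). The groups did not overlap, although Naive mouse 10 lay close to Sham mouse 5. Fosb, a paralog of Fos, had 14.5, 12.04 and 12.7 CPM against 20.8, 22.9 and 14.2 CPM (−0.56), and there Naive mouse 10 lay within the range of the Sham mice. Junb, another AP-1 subunit, had 82.4, 81.3 and 87.3 CPM against 103, 108 and 88.7 CPM (−0.26).

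Dusp1, Btg2 and Cyr61 were also lower in every Sham mouse than in every Naive mouse, whereas Dusp6, another phosphatase of MAP kinases in the list, had a log2 fold change of 0.05 and groups that overlapped. Dusp1, a phosphatase of MAP kinases, had 22.7, 23.3 and 22.2 CPM in Sham mice and 26.5, 27.4 and 29.1 CPM in Naive mice (−0.28, adjusted p = 0.519, edgeR). Btg2, an antiproliferative early gene, had 23.7, 25.9 and 22.3 CPM against 28.8, 30.2 and 41.4 CPM (−0.48), with Naive mouse 10 the highest. Cyr61, a matricellular protein, had 4.66, 4.55 and 4.14 CPM against 6.23, 6.78 and 5.89 CPM (−0.50).

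The 3 most abundant members, Arc, Egr1 and Nr4a3, did not pass an unadjusted p of 0.05. Arc, which acts at synapses, had 248, 221 and 237 CPM in Sham mice and 289, 327 and 210 CPM in Naive mice (−0.22, 95% interval −0.48 to 0.03). Egr1 had −0.20 (−0.42 to 0.03) and Nr4a3 had −0.03 (−0.26 to 0.19). Homer1 (−0.01, −0.14 to 0.13), Bdnf (0.02, −0.09 to 0.14) and Egr3 (−0.04, −0.15 to 0.08) had intervals narrow around 0. Naive mouse 10 lay within or below the Sham range in Arc and Fosb.

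The list score was −0.16, −0.27 and −0.19 in Sham mice and 0.02, 0.15 and −0.17 in Naive mice, so that Naive mouse 10 lay among the Sham mice. Without Naive mouse 9 the median log2 fold change was −0.05, and with each other mouse left out it lay between −0.29 and −0.14.

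The other genes of the 10 lowest p below Naive were outside the early gene list. Calb2, the calcium buffer calretinin of interneurons and mossy cells, had 39.7, 39.5 and 36.4 CPM in Sham mice and 51.0, 45.7 and 49.2 CPM in Naive mice (−0.34, adjusted p = 0.169, edgeR). Nfasc, the adhesion protein neurofascin of the node of Ranvier, had 342, 330 and 361 CPM against 414, 421 and 372 CPM (−0.23, adjusted p = 0.694, edgeR). Fabp7, a fatty acid carrier of astrocytes and progenitors, had 29.1, 27.5 and 25.6 CPM against 32.8, 32.4 and 33.03 CPM (−0.26, adjusted p = 0.694, edgeR). These genes were chosen for groups that did not overlap, and every interval lay within 0.5. Pdzd2 (−0.34) and Ppp1r10 (−0.20), a regulator of protein phosphatase 1, completed the 10. DESeq2 called Calb2, Nfasc and Pdzd2.

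Most glial and immune lists had medians near that of all genes. Microglia markers had a median of 0.05 over 16 genes, with Csf1r, the receptor that microglia need to survive, at 118, 116 and 123 CPM in Sham mice and 109, 109 and 112 CPM in Naive mice (0.11, unadjusted p = 0.0259, edgeR). Of 16 genes of activated microglia, 2 were higher at an unadjusted p under 0.05 (1.9% of all genes), Spp1 and Apoe. Apoe had 0.17 (95% interval 0.05 to 0.29). Interferon-stimulated genes had a median of 0.12 over 17 genes, with 0 at an unadjusted p under 0.05 in either direction by edgeR.

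Reactive astrocyte genes had a median of 0.11 over 18 genes, 4 of them at an unadjusted p under 0.05 and all 4 higher (1.9% of all genes). These were Serping1 (0.41) and C4b (0.18), both also complement genes, Cp (0.32), which encodes ceruloplasmin, and Tm4sf1 (0.22). Gfap, the filament protein that defines reactive astrocytes, had 349, 371 and 477 CPM in Sham mice and 412, 416 and 404 CPM in Naive mice, with Naive mice inside the Sham range (−0.04, 95% interval −0.24 to 0.15). Markers of astrocytes as a class had a median of −0.02.

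Of 15 complement genes tested, 4 were higher at an unadjusted p under 0.05 (1.9% of all genes), among them Serping1, C2 and C4b, and 1, C1s1, was lower (2.26% of all genes). The median was 0.04, and C1qa, a subunit of the initiating complex, had 0.14 (95% interval −0.001 to 0.28). The 6 MHC class II genes tested had a median of 0.55 at levels mostly under 1 CPM. H2-Aa had 16, 29 and 22 counts in Sham mice and 16, 8 and 14 counts in Naive mice, so its counts touched and its CPM did not. Cd74, the invariant chain, had 24, 45 and 50 counts against 36, 20 and 36 counts (0.24, −0.36 to 0.84).

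Leukocyte markers had few counts in either group. Of 14 leukocyte markers in the files, Ptprc alone was tested, with 109, 89 and 82 counts in Sham mice and 94, 75 and 73 counts in Naive mice (0.08, 95% interval −0.29 to 0.45). The neutrophil genes S100a8 and S100a9 had between 0 and 12 counts per mouse. Each of 6 globin names had 0 counts in all mice, but these names share loci in pairs and reads on more than 1 gene were discarded, so they measure nothing here and red blood cells were not assessed by them. Alas2, a heme synthesis gene of red cells, had 33, 70 and 45 counts against 45, 38 and 31 counts, and Hmox1, the heme-degrading enzyme, had −0.01 (−0.31 to 0.29).

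Neuronal and myelin lists were bounded closely. Pyramidal neuron markers had a median of 0.002 over 14 genes, synaptic genes −0.02 over 16 and dentate granule cell markers −0.03 over 10, with Sham mouse 5 low in the last (score −0.31). Camk2a, the kinase of excitatory synapses, had 0.02 (95% interval −0.10 to 0.13). Oligodendrocyte and myelin markers had a median of −0.04 over 16 genes, with Mbp, myelin basic protein, at −0.03 (−0.24 to 0.17). Apod (0.24) was the 1 higher at an unadjusted p under 0.05 (1.9% of all genes). The score was −0.145, −0.095 and 0.24 in Sham mice 5, 6 and 7. Leaving out each mouse gave medians from −0.175 to 0.03. Oligodendrocyte precursor markers had 3 of 12 genes lower at an unadjusted p under 0.05 (2.26% of all genes), Tnr (−0.23), Enpp6 (−0.38) and Gpr17 (−0.21), and all 11 neurogenesis genes were negative, at a median of −0.07, with 0 past an unadjusted p of 0.05.

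Vessel cells gave small values. Endothelial markers were negative in 13 of 14 genes, at a median of −0.09, with 0 past an unadjusted p of 0.05, and their score was highest in Naive mouse 9 at 0.23, without which the median was 0.005. Pericyte and smooth muscle markers had a median of 0.17 over 11 genes, which was −0.03 without Sham mouse 6. Vtn, which encodes vitronectin, had 58.4, 69.1 and 55.3 CPM in Sham mice and 49.1, 51.5 and 48.3 CPM in Naive mice (0.30, unadjusted p = 0.00166, edgeR), and Kcnj8 was the other of 2 higher at an unadjusted p under 0.05 (1.9% of all genes).

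Ribosomal protein genes moved by little and mostly one way. Of 76 tested, 70 were positive and 20 had an unadjusted p under 0.05, all higher (1.9% of all genes), with a median log2 fold change of 0.09. The list score was 0.07, 0.07 and 0.13 in Sham mice and −0.02, −0.05 and 0.07 in Naive mice, so Naive mouse 10 lay among the Sham mice. Genes of oxidative phosphorylation had a median of 0.05, with 69 of 76 positive and 3 higher at an unadjusted p under 0.05 (1.9% of all genes). Rn45s, the ribosomal RNA precursor that the library kit is meant to deplete, was chosen after its values were seen and had 930, 1070 and 1069 CPM against 833, 848 and 854 CPM (0.28, adjusted p = 0.220, edgeR). Rn45s was called by DESeq2, and by edgeR with no filter or without Sham mouse 5. Its part in these values was not tested.

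Lists for the stress of surgery had medians near 0. Glucocorticoid response genes had a median of −0.06 over 19 genes and 1 higher at an unadjusted p under 0.05 (Plin4, 0.64, beside 1.9% of all genes), with Fkbp5, a sensitive target of the receptor, at −0.06 (95% interval −0.30 to 0.18). Hypoxia response genes had a median of 0.001 over 18 genes, with 1 higher at an unadjusted p under 0.05 (1.9% of all genes), Egln3 (0.30). Chaperone genes had a median of −0.02 over 24 genes, with 1 higher at an unadjusted p under 0.05 (1.9% of all genes), Ddit3 (0.24). Circadian clock genes had a median of 0.0009 over 17 genes, with 3 at an unadjusted p under 0.05 (4.16% of all genes), Dbp (0.27) and Nr1d2 (0.10) higher and Hlf (−0.12) lower. Pgk1, the study's reference gene, had 0.003 (−0.11 to 0.12).

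Over the 34 lists with at least 5 genes tested, 27 had a median between −0.1 and 0.1, and in 18 every member's interval lay within 1 log2 unit. The marker list of neighbouring regions had a median of −0.06 over 17 genes, 7 of them positive. The groups did not overlap in 0 of the 17, beside 8.93% of all genes, a share under which few of 17 would be met. In it 2 genes were lower at an unadjusted p under 0.05 (2.26% of all genes), Tcf7l2 (−0.59) and Tnnt1 (−1.23), both expressed in the thalamus. Tnnt1 had 0.659, 0.808 and 1.04 CPM in Sham mice and 1.502, 0.924 and 3.39 CPM in Naive mice, with Naive mouse 10 far above the rest, and its log2 fold change was −0.57 without that mouse.

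**Figure D4:**
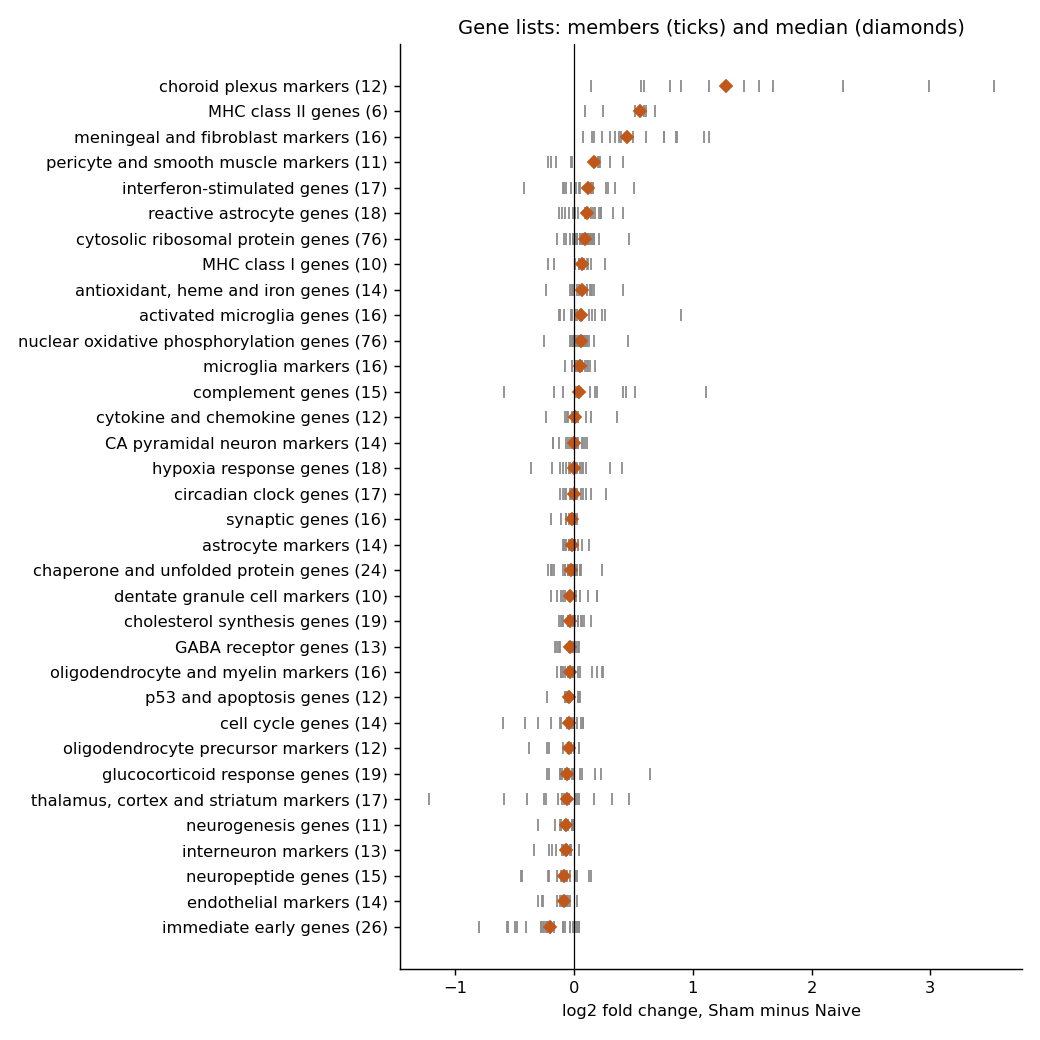
Log2 fold changes, Sham minus Naive, of the tested members (grey ticks) and their median (orange diamonds) in the 34 gene lists with at least 5 tested genes, whose number stands in parentheses. Choroid plexus, MHC class II and meningeal markers lie at the top with medians of 1.28, 0.55 and 0.45, immediate early genes at the bottom with −0.21, and 27 lists lie between −0.1 and 0.1.

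Pairs of mice from 1 group were about as far apart as pairs across groups. The distance between 2 mice, the root mean square difference of log2 CPM over all 14855 genes, averaged 0.264 over the 9 pairs of a Sham and a Naive mouse, 0.262 over the 3 Sham pairs and 0.260 over the 3 Naive pairs. Between-group distances ran from 0.234 to 0.301 and within-group distances from 0.246 to 0.281, so the latter lay inside the former. The mean difference was 0.004 (p = 0.6, 2-sided exact permutation test, where 3 mice against 3 cannot give a p below 0.1).

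**Figure D5:**
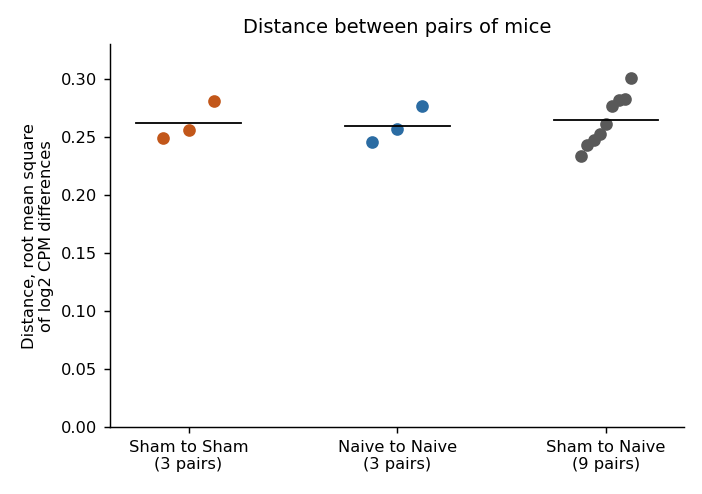
Distance between each pair of the 6 mice, as the root mean square of log2 CPM differences over 14855 genes, by kind of pair (points), with the mean of each kind as a line. The 9 pairs across groups span 0.234 to 0.301 and enclose the 6 pairs within groups.

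The SAH mice are set beside the genes called, with CPM scaled over all 10 mice and contrasts of 1 model for the 3 groups. The comparisons share mice, so the values stand side by side only. Slc13a4 had 17.4, 18.6, 14.2 and 16.9 CPM in the 4 SAH mice, above every Sham mouse, with a log2 fold change of 0.70 against Sham (adjusted p = 0.1004) and 2.21 against Naive (adjusted p = 0.000125, edgeR). Fmod had 35.8, 31.3, 10.96 and 22.8 CPM, with 1.65 against Sham (adjusted p = 0.0499) and 2.79 against Naive (adjusted p = 0.00185, edgeR). Npas4 had 8.51, 11.2, 5.45 and 7.07 CPM, with −0.88 against Sham (adjusted p = 0.0682) and −1.69 against Naive (adjusted p = 0.00058, edgeR). In each of these genes the Sham mice lay between the Naive and the SAH mice without overlap.

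In that fit, where the SAH mice add to the estimate of spread, Slc13a4 alone stayed called between Sham and Naive (1 higher, adjusted p = 0.0488, and 0 lower, with 133 lower at an unadjusted p under 0.05, edgeR). Fos had 12.8, 16.7, 6.77 and 9.11 CPM in SAH mice, below every Sham mouse. Calb2 did not continue in that way, with 39.2, 46.8, 29.4 and 28.5 CPM in SAH mice, which enclose the Sham values. Pdzd2, at 51.3, 53.7, 66.1 and 67.6 CPM, overlapped both groups.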

How the data were processed

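RNA sequencing of whole bilateral hippocampus was analysed for 6 of 10 mice, grouped by GEO's condition label. The authors mapped read pairs with STAR (genome build mm9). With featureCounts 1.6.2 they kept sense pairs whose exons belonged to 1 gene name. The deposited values are counts per gene name, without normalization (from 19743388 to 27254655 per mouse, with 0 names of the mitochondrial genome). The reads were not used here.

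CPM, fold changes and tests were computed from the deposited counts with edgeR 4.0.16 (R 4.3.3): TMM, filterByExpr by group (at least 10 counts in enough mice and 15 in all), the quasi-likelihood test, Benjamini-Hochberg adjustment over 14855 genes and a threshold of 0.10, the study's. The fit held the 6 mice only and no covariate. Standard errors were the log2 fold change over the square root of F, and intervals used 12.33 degrees of freedom. Log2 CPM took a prior count of 2. The fit was tested on simulated data. Pairs of libraries differed beyond sampling noise (chi-square per degree of freedom of at least 3.52), so none was a duplicate.

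The genes named were those called, the 10 of lowest p in each direction whose groups did not overlap, in each of 36 lists the 3 most abundant and those at an unadjusted p under 0.05, and Pgk1. Others in the text were chosen after their values were seen. A gene that the rule names is not reported here. The comparison, the genes and the lists were chosen with earlier results of these data known. Alternatives were DESeq2 1.42.0, its size factors, library size alone, upper quartile scaling, a filter of at least 10 counts in each mouse or none, a robust fit, the 3 groups together, an adjusted p under 0.05, and each mouse left out. Promoter motifs were counted in Python 3.11.15 with pandas 2.3.3, and figures drawn with matplotlib 3.10.9. Intervals cover the spread between 3 mice a group.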

Additional observations from a re-analysis of the deposited data

Results flagged for a closer look

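Wfikkn2 was set apart in the 4 SAH mice, which are outside the comparison. It had 1.64, 2.24, 5.61 and 2.04 CPM there, and the gap of the highest mouse (5.605 CPM) to the next was 0.849 of the range, above the 95% critical value of Dixon's test for 4 samples. Chance gives such a flag in about 1 in 20 groups, and 23 genes were looked at. The same SAH mouse 3 had the highest Ttr level of the 4, at 1109 CPM. The cause was not tested.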

How the results depend on the processing

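The main counts were 2 genes higher and 1 lower in Sham mice. DESeq2 gave 12 higher and 7 lower, no filter 15 and 4, and the robust fit 7 and 1. Upper quartile scaling gave 8 higher and 1 lower, and it raised the share of genes at an unadjusted p under 0.05 that were higher from 45.6% to 64.2% (library size alone, 58.9%). The fit of 3 groups gave 1 higher and 0 lower (172 and 133 at an unadjusted p under 0.05), and an adjusted p under 0.05 left 1 higher and 1 lower. With each mouse left out, the counts ran from 0 to 16 higher and from 0 to 13 lower, with 0 and 0 without Naive mouse 9 (382 genes at an unadjusted p under 0.05) and 16 and 13 without Sham mouse 5. Slc13a4, Fmod and Npas4 were among the genes called by DESeq2, its size factors, library size alone, upper quartile scaling, no filter, the filter of 10 counts and the robust fit. Fmod lost its call without Sham mouse 6 (adjusted p = 0.200) and without Naive mouse 8 (adjusted p = 0.223, as for Slc13a4). The cause was not tested. Of the lists' medians, that of pericyte and smooth muscle markers (0.17) turned to −0.03 without Sham mouse 6, that of endothelial markers (−0.09) to 0.005 without Naive mouse 9, that of dentate granule cell markers (−0.03) to 0.09 and of glucocorticoid response genes (−0.06) to 0.02 without Sham mouse 5, and that of neighbouring regions (−0.06) to 0.03 without Sham mouse 6 and 0.02 without Naive mouse 10. Other medians also changed sign as each mouse was left out. Among them were oligodendrocyte and myelin markers (−0.175 to 0.03), cell cycle genes (−0.24 to 0.01) and chaperone genes (−0.05 to 0.04). Complement genes ran from 0.006 to 0.15. MHC class II fell to 0.17 with at least 10 counts in every mouse and to 0.22 without Sham mouse 7. The difference in distance was 0.004 with a prior count of 0.5 (p = 0.4) and 0.002 with at least 10 counts in every mouse (p = 0.8), by exact permutation tests. No named gene that was called changed direction under these alternatives. No paired analysis was possible because the mouse numbers, 5 to 7 and 8 to 10, are not shared between the groups. With 3 mice a group, genes under 1 CPM were bounded to a median half-width of 0.75, and counting error is largest there.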
